A study of Mus musculus with 4 samples.

Results

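The nuclear genes for the proteins of the mitochondrial ribosome were examined in mouse quadriceps, a thigh muscle. Members were taken by name: every gene on the array whose symbol starts with Mrpl (large subunit) or Mrps (small subunit) and a digit, on a probe set annotated to that gene alone. This gave 71 genes, 43 Mrpl and 28 Mrps, of 22180 genes in all. RefSeq lists 78 protein-coding genes with such names, and the other 7 (Mrpl30, Mrpl33, Mrpl41, Mrpl43, Mrpl44, Mrpl53 and Mrps6) shared their probe sets with other genes and were not analysed here. Where a gene had several probe sets, the brightest over the 4 arrays was used.

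Total RNA was measured on Affymetrix whole-transcript arrays, 1 per animal. The study compared 2 wild-type mice (WT) with 2 mice that carry transgenes for both NF90 and NF45 (dbTg), a pair of partner proteins. Replicate 1 of each genotype was a male and replicate 2 a female. WT replicate 1 was 17 to 18 weeks old, and WT replicate 2 and both dbTg mice were 16 weeks old. The sources used here do not give the strain, the promoter that drives the transgenes or any littermate relation. Expression is given as log2 RMA values, so a difference of 1 is 2-fold. Differences are dbTg minus WT, and SDs and n refer to the arrays of a group. The signal of a probe set depends on its probes, so levels are compared between arrays and not between genes.

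Mitochondrial ribosomes sit in the mitochondrial matrix and translate the few messenger RNAs encoded in mitochondrial DNA, nearly all of them for subunits of the respiratory chain. Their ribosomal RNAs come from mitochondrial DNA as well, while all their proteins are encoded in the nucleus, made in the cytosol and imported. Some of these proteins belong to families also found in bacterial ribosomes. Others do not, and are called here proteins without a bacterial relative, meaning none in the bacterial ribosome. Muscle fibres depend on this machinery for oxidative energy supply, and inherited defects in several of its proteins cause mitochondrial disease.

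The arrays read muscle. The 10 skeletal muscle fibre markers (actin, myosin and creatine kinase genes among them) were all at 8.30 or above on the log2 scale on every array. Of these 10, 7 had negative differences (median -0.05) and 0 passed the test described below. Ilf2, which encodes NF45, read 5.03 and 5.04 in WT and 10.36 and 10.16 in dbTg. Values for markers of other cell types also differed between the groups. Of 10 macrophage and leukocyte markers, 9 had positive differences and 6 of the 8 tested passed the test, against 2.21% of all tested genes. The summed level of the 10 markers on the linear scale was 84.7 to 86.9 in WT and 491 to 591 in dbTg. Among them, the B cell gene Ms4a1 stayed at 0.95 or below on all 4 arrays. All 7 endothelial markers (summed level 283 to 289 in WT, 160 to 201 in dbTg) had negative differences, against 39.5% of all tested genes. The 6 fibroblast markers summed to 771 to 882 in WT and 1126 to 1221 in dbTg, and the 4 adipocyte markers to 22.6 to 23.8 and 49.7 to 67.4. The test was passed by 0 of the 7 endothelial, 0 of the 6 fibroblast and 2 of the 4 adipocyte markers. The sums weigh the brightest genes most, Cdh5 among the endothelial and Dcn among the fibroblast markers. The part of these cell types in the values below was not tested. In a bulk sample, fewer cells of a type and less RNA per cell cannot be told apart.

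No mitochondrial ribosomal protein gene passed the test between the genotypes. In limma, fitted over the 13308 genes above an intensity filter with Benjamini-Hochberg adjustment, 0 of the 67 tested members had an adjusted p under 0.05, against 2.21% of all tested genes (2.01% higher and 0.203% lower in dbTg). At an unadjusted p under 0.05, 7 members were apart, 5 higher (Mrpl47, Mrps22, Mrps30, Mrpl40 and Mrpl52) and 2 lower (Mrps25 and Mrpl16). The deposited values had already been normalized by quantiles within RMA. A second round was run on the probe set values and is called quantile normalization below. After it the balance of these 5 and 2 turned, with 1 member higher and 7 lower. The share of all tested genes was not counted in that setting. The 7 members found in the deposited values are 10.4% of the members, against 18.7% of all tested genes. The share was 14% of all tested genes for higher and 4.64% for lower. The median log2 difference of the tested members was 0.04, with quartiles of -0.16 and 0.27. Over all tested genes the median was 0.09, with quartiles of -0.13 and 0.35.

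The intervals bound how large a difference the arrays leave room for. For 60 of the 67 tested members the 95% confidence interval from limma, not adjusted for the number of genes, lay inside 2-fold in both directions. The same held for 72.8% of all tested genes. A change of 1.5-fold lay outside the interval for only 11 members, against 18.7% of all tested genes. A measured difference of 2-fold or more was found for 1 member, Mrpl47, and one of at least 1.5-fold for 3 tested members, Mrpl47, Mrps25 and Mrps22. Among all tested genes, 4.81% reached 2-fold and 16.4% reached 1.5-fold.

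Both signs were found among the Mrpl and among the Mrps names. Of the 41 tested Mrpl genes, 23 had positive and 18 negative differences (median 0.06, range -0.44 to 1.08). Of the 26 tested Mrps genes, 13 were positive and 13 negative (median 0.01, range -0.74 to 0.63). Among all tested genes, 39.5% had a negative difference. Over all 71 members the median was 0.06. It was -0.07 after the second quantile normalization, where 27 members were positive and 44 negative in place of 39 and 32. The median of all tested genes also moved, from 0.09 to -0.002 in that setting. No direction can therefore be given for the family as a whole.

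**Figure D1:**
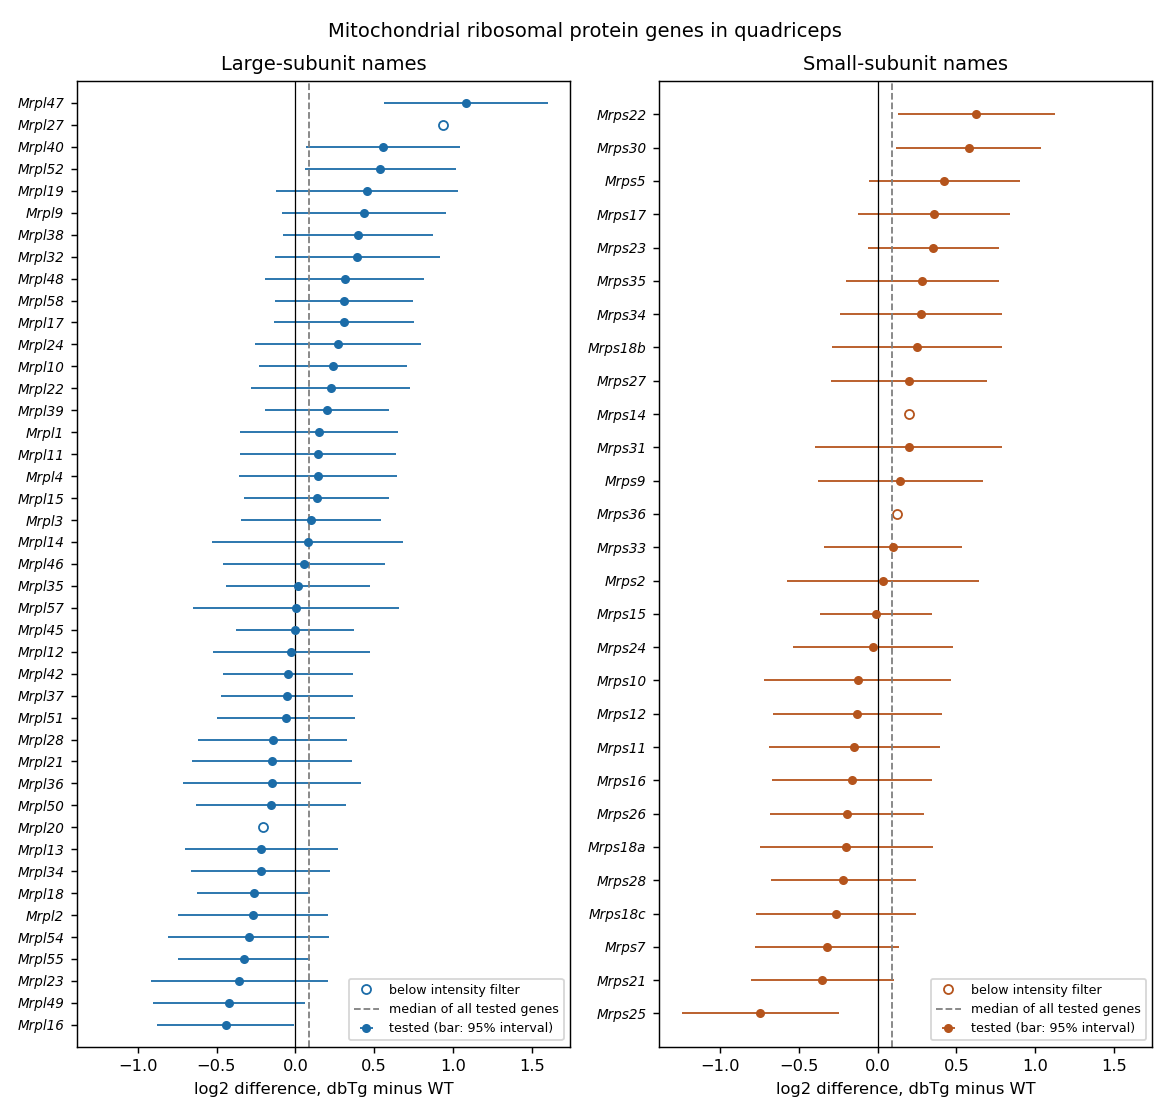
Log2 difference (dbTg minus WT, x axis) of each of the 71 genes, large-subunit names on the left and small-subunit names on the right, with the 95% confidence interval from limma for the 67 tested genes and open circles for the 4 genes below the intensity filter. Most intervals span 0, and Mrpl47 at 1.08 and Mrps25 at -0.74 lie farthest out among the tested genes. The median over all members is 0.06, and it turns negative (-0.07) after a second quantile normalization. The median of all tested genes moves from 0.09 to -0.002 in that setting.

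Mrpl47 had the largest difference of the tested members. It encodes the relative of bacterial ribosomal protein L29, which lies at the mouth of the tunnel through which the new peptide leaves the large subunit. Its values were 3.04 and 3.33 in WT and 4.17 and 4.36 in dbTg. Both dbTg arrays were above both WT arrays, and the gap between the groups was wider than the gap within either. The difference was 1.08 (SE 0.22, 95% interval 0.56 to 1.60, 2.12-fold), with an unadjusted p of 0.00182 and a limma adjusted p of 0.0606. A dimmer probe set annotated to the same gene read 2.55 and 2.45 in WT and 3.04 and 3.29 in dbTg, a difference of 0.67 in the same direction. Mrpl47 was past the threshold without WT replicate 2 (difference 1.23, limma adjusted p = 0.0268) and when only genes above the 60th percentile were tested (0.0481). Over all 12 alternatives its limma adjusted p ranged from 0.0268 to 0.449.

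The other 4 genes higher at an unadjusted p under 0.05 had smaller differences. Mrps22, a small-subunit protein without a bacterial relative and a known disease gene of mitochondrial translation, read 3.46 and 3.73 in WT and 4.16 and 4.28 in dbTg (difference 0.63, SE 0.21, limma adjusted p = 0.176). Mrps30 read 4.49 and 4.26 in WT and 4.88 and 5.03 in dbTg (0.58, SE 0.19, limma adjusted p = 0.176). Despite its name, its protein is placed in the large subunit in structures of the mammalian particle. Mrpl40, a protein of the central protuberance at the top of the large subunit, read 2.91 and 2.92 in WT and 3.46 and 3.48 in dbTg (0.55, SE 0.21, limma adjusted p = 0.214). The larger of its gaps within a group, 0.015, was the smallest of all members. Mrpl52, a large-subunit protein without a bacterial relative, read 5.03 and 4.88 in WT and 5.68 and 5.30 in dbTg (0.54, SE 0.20, limma adjusted p = 0.219). In these 4 genes both dbTg arrays exceeded both WT arrays.

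Mrps25 had the most negative difference. Its protein belongs to the small subunit and has no relative in bacterial ribosomes. It read 3.90 and 3.69 in WT and 3.06 and 3.05 in dbTg, so the dbTg arrays lay close together and below both WT arrays. The difference was -0.74 (SE 0.21, 95% interval -1.24 to -0.24, limma adjusted p = 0.127), which makes WT 1.67-fold higher. Mrpl16, a core protein of the large subunit from a bacterial family, read 4.76 and 4.70 in WT and 4.33 and 4.25 in dbTg (difference -0.44, SE 0.18, limma adjusted p = 0.261).

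The next genes on either side had unadjusted p-values above 0.05. Mrpl49, a large-subunit protein without a bacterial relative, read 3.73 and 3.76 in WT and 3.27 and 3.38 in dbTg. Mrpl23, which lies beside Mrpl47 at the tunnel exit, read 4.47 and 4.08 in WT and 4.09 and 3.75 in dbTg, and its groups overlapped. Mrps21 read 4.52 and 4.53 in WT and 4.26 and 4.09 in dbTg. The corresponding values of Mrpl55 were 5.23 and 5.33, and 4.89 and 5.02. Mrpl19, from a bacterial family of the large subunit, read 2.98 and 3.47 in WT and 3.64 and 3.71 in dbTg. Apart from Mrpl23, the groups of these genes did not overlap.

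**Figure D2:**
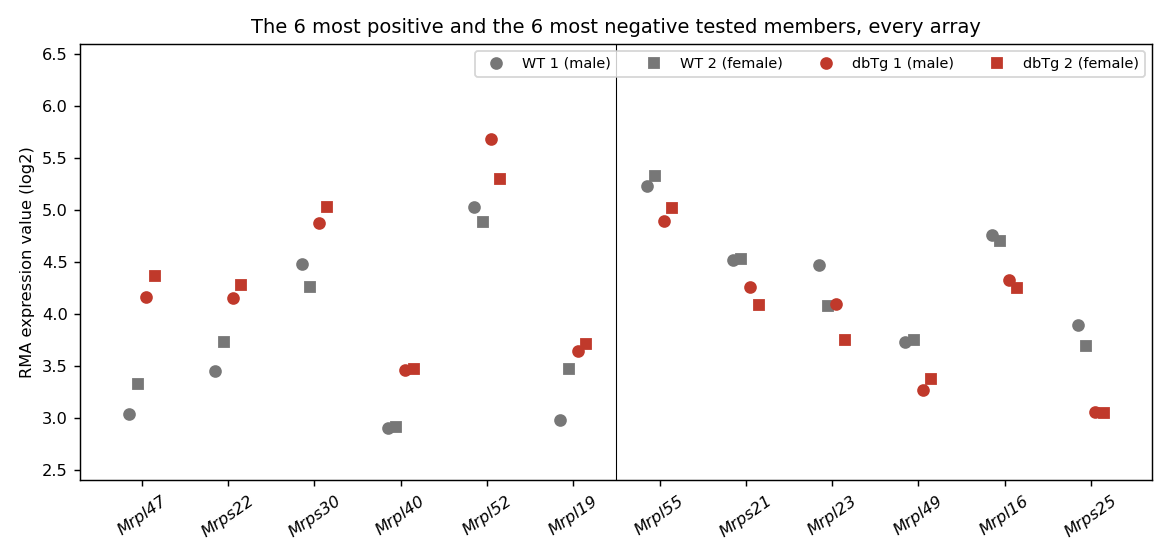
RMA expression value (log2, y axis) on each array for the 6 most positive and the 6 most negative tested genes, WT in grey and dbTg in red, circles for males and squares for females. The 2 dbTg values of Mrpl47 (4.17 and 4.36) lie above its WT values (3.04 and 3.33), and the groups overlap for Mrpl23 alone.

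The overlap of the groups was counted without a model. The groups did not overlap for 38 of the 67 tested members, 23 with both dbTg arrays higher and 15 with both lower. Among all tested genes the groups did not overlap for 50%, with 33.7% higher and 16.3% lower. Over all 71 members, 24 were higher and 16 lower. The second quantile normalization turned this to 15 higher and 28 lower, a setting in which the share of all tested genes was not counted. The median size of the difference was 0.22 for the tested members and 0.25 for all tested genes. The median of the larger gap within a group was 0.24 for the members.

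The promoters of the tested members with the 2 most positive and the 2 most negative differences are shown to set the start regions of the genes at both ends of the range side by side. RefSeq sequences (GRCm38.p6) run from 250 bases before to 50 bases after the annotated start, and 62 of the 71 members had at least 1, with 68 promoters in all. Letters searched on both strands were GCGCATGC (core of the NRF1 site), CCGGAAG (core of sites for ETS factors such as GABPA), AAGATGGC (core of the YY1 site) and CCAAT. None of these motifs holds another. Capitals below mark matches. The promoters lie at chr3:32736706-32737005 on the minus strand (Mrpl47), chr9:98601630-98601929 on the minus strand (Mrps22), chr19:11770165-11770464 on the plus strand (Mrpl16) and chr6:92183974-92184273 on the minus strand (Mrps25).
Mrpl47: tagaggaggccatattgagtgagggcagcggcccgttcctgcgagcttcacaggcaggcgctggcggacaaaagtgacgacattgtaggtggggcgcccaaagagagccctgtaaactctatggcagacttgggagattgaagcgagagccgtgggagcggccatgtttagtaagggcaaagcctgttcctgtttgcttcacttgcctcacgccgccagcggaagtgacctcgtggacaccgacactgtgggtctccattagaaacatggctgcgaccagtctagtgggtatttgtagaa
Mrps22: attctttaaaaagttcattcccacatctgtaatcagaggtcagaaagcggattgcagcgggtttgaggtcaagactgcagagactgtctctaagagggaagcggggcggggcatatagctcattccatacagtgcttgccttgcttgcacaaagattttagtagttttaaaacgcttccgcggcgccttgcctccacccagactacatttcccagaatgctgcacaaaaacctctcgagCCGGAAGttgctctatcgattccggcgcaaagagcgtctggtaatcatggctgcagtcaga
Mrpl16: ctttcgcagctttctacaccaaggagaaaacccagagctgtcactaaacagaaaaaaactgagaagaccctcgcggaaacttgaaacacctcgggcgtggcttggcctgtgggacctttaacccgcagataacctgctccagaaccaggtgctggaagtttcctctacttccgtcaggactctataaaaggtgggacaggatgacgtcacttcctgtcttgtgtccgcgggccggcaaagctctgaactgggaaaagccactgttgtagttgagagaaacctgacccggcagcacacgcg
Mrps25: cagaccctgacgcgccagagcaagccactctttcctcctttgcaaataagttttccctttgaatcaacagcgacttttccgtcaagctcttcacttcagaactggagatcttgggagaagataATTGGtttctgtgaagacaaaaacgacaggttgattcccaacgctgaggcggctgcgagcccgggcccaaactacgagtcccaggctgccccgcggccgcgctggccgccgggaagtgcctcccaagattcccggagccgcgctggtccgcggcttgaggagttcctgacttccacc

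Of these 4, Mrps22 holds 1 match to CCGGAAG, which begins 11 bases before the annotated start, and Mrps25 holds 1 match to CCAAT on the other strand. Mrpl47 and Mrpl16 hold no match. Among all 68 member promoters CCGGAAG was found in 33.8%, against 8.86% of the 32851 promoters in the table and 11.6% of the promoters of protein-coding genes. AAGATGGC was found in 17.6% of member promoters and 2.75% of all promoters, and GCGCATGC in 10.3% and 2.71%. CCAAT was found in 39.7% and 37.4%. The 23 members with CCGGAAG had a median log2 difference of 0.10 and the other members with a promoter a median of 0.02. For the 12 members with AAGATGGC the median was -0.09, against 0.10 for those without. It was 0.25 and -0.01 for GCGCATGC (7 members with it), and -0.09 and 0.09 for CCAAT (24 members with it). These contrasts were not tested. A match is a description of letters and not a binding site.

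Many member genes start back to back with another gene. In the same RefSeq table, 22 of 62 members (35.5%) had the start of another protein-coding gene on the opposite strand within 1000 bases upstream, against 8.57% of the protein-coding genes with a promoter entry. These made 21 pairs, 1 of which joins 2 members (Mrpl46 and Mrps11). In 19 pairs both genes were tested, and their differences had the same sign in 9. Mrpl47 starts 308 bases from Ndufb5, which encodes a subunit of respiratory complex I. Ndufb5 read 6.11 and 6.36 in WT and 6.04 and 5.90 in dbTg (difference -0.27, limma adjusted p = 0.462). Mrpl49 starts 192 bases from Fau, a gene for a ubiquitin-like protein fused to a cytosolic ribosomal protein. The difference of Fau was 0.80 (limma adjusted p = 0.0962), while that of Mrpl49 was -0.42. Mrps18b starts 756 bases from Ppp1r10, a regulatory subunit of protein phosphatase, with a difference of 1.00 (limma adjusted p = 0.0947) beside 0.25 for Mrps18b. None of the partners passed the test, against 2.21% of all tested genes. Fau and Ppp1r10 were named after their values were seen.

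The members were then grouped by place in the ribosome. Beside the sign counts that follow, 39.5% of all tested genes had a negative difference, so most were positive. At the exit of the peptide tunnel (Mrpl17, Mrpl22, Mrpl23, Mrpl24, Mrpl39, Mrpl45 and Mrpl47), 5 of 7 genes had positive differences, with a median of 0.22. Mrpl45, which anchors the particle to the inner membrane, read 5.97 and 6.03 in WT, and both dbTg arrays lay between these values. In the central protuberance (Mrpl18, Mrpl38, Mrpl40, Mrpl46, Mrpl48, Mrpl55 and Mrpl58), 5 of 7 were positive, with a median of 0.31. Mrpl58, a release factor that was built into the large subunit, read 5.06 and 5.11 in WT and 5.52 and 5.26 in dbTg. Mrpl18 went the other way, at 6.63 and 6.61 in WT and 6.31 and 6.40 in dbTg.

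The side stalks, which bind translation factors and guide used transfer RNAs, had 4 of 5 positive differences (Mrpl1, Mrpl9, Mrpl10, Mrpl11 and Mrpl12, median 0.15). Mrpl9 read 4.47 and 4.39 in WT and 5.10 and 4.64 in dbTg. Mrpl12 read 4.06 and 4.41 in WT and 4.19 and 4.22 in dbTg, with overlapping groups. The remaining large-subunit genes had a median of -0.06 for the 14 tested from bacterial families and -0.05 for the 8 without one.

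In the small subunit, the 15 tested genes from bacterial families had a median of -0.13, with 5 positive and 10 negative. They include Mrps12, which encodes a protein of the decoding site, at 2.47 and 2.77 in WT and 2.56 and 2.41 in dbTg. Mrps5, of the entry to the messenger RNA channel, read 4.23 and 4.19 in WT and 4.48 and 4.78 in dbTg. The 9 small-subunit genes without a relative in the bacterial ribosome had a median of 0.20, with 7 positive differences. They hold both the most negative (Mrps25) and the most positive (Mrps22) of the Mrps genes. Mrps18a, Mrps30 and Mrps36 have small-subunit names but are placed outside the small subunit, and were kept apart from these groups. Across all tested members, the 25 without a relative in the bacterial ribosome had a median of 0.20 and the 42 with one a median of -0.02. None of these groups had a called gene, and the differences between groups were not tested. For 8 members, not a full list, human variants are known to impair mitochondrial translation (Mrpl3, Mrpl12, Mrps2, Mrps7, Mrps16, Mrps22, Mrps25 and Mrps34). Of these 8, 4 were positive and 4 negative, with a median of 0.0046.

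**Figure D3:**
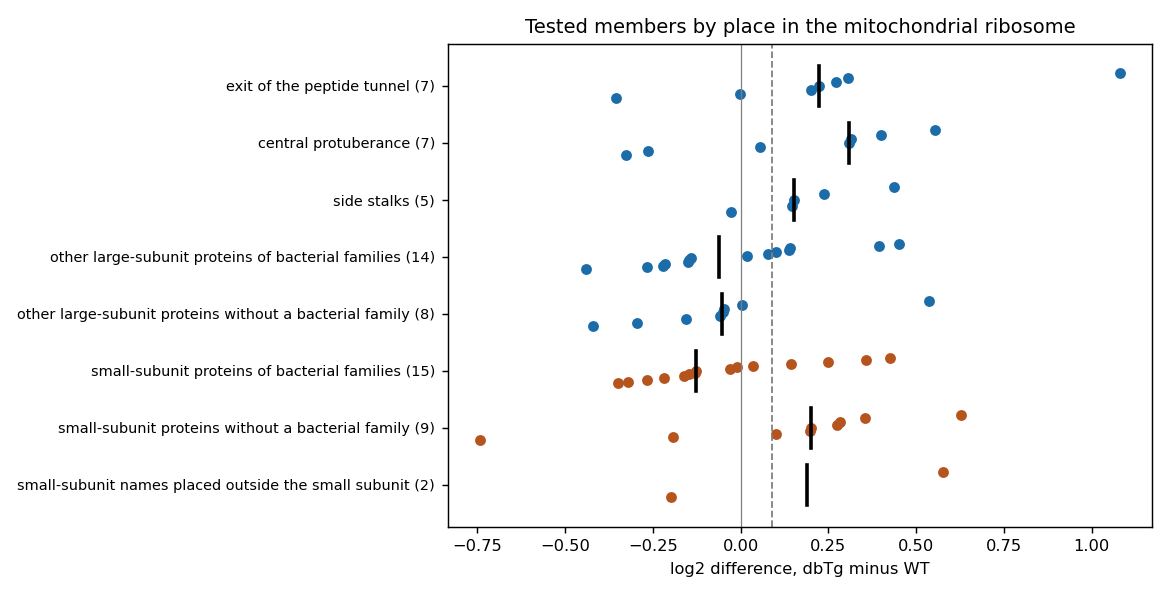
Log2 difference (dbTg minus WT, x axis) of the 67 tested genes grouped by place in the mitochondrial ribosome, each point 1 gene, with the number of genes in brackets. The black bar is the group median, the solid grey line 0 and the dashed line the median of all tested genes (0.09). Group medians lie between -0.13 and 0.31 with wide overlap. Values are the deposited ones, and a second quantile normalization lowers the median of all members from 0.06 to -0.07. It also lowers the median of all tested genes, from 0.09 to -0.002.

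The measured differences of the 3 paralogues of the S18 family did not share a sign, and all 3 of their 95% intervals spanned 0. Mrps18b read 4.42 and 3.97 in WT and 4.54 and 4.34 in dbTg, and its other probe set differed by 0.32 in the same direction. Mrps18a, whose protein is placed outside the small subunit despite its name, read 3.78 and 3.96 in WT and 3.88 and 3.47 in dbTg. Mrps18c read 2.66 and 2.44 in WT and 2.33 and 2.23 in dbTg, but its dimmer probe set differed by 0.19 in the other direction. In all, 9 members had more than 1 probe set, and the signs disagreed for 5: Mrpl10 (0.24 and -0.23), Mrpl12 (-0.03 and 0.03), Mrps16 (-0.16 and 0.40), Mrps17 (0.36 and -0.24) and Mrps18c. In each of these the second probe set had a mean under 2 on the log2 scale.

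The 3 members with the highest mean signal were Mrps15, Mrpl18 (given above) and Mrpl42. Mrps15, a small-subunit protein from a bacterial family, read 6.80 and 6.72 in WT and 6.80 and 6.70 in dbTg, a difference of -0.01 with a 95% interval of -0.36 to 0.35. Mrpl42 read 5.98 and 6.12 in WT and 6.13 and 5.88 in dbTg. The widest gaps within a group were those of Mrpl27 (2.00 and 1.26 in dbTg), Mrps31 (0.61 apart in WT) and Mrps10 (3.77 and 4.35 in WT).

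The 4 members below the intensity filter were not tested. Mrpl27, whose bacterial relative reaches towards the peptidyl transferase centre, read 0.67 and 0.71 in WT and 2.00 and 1.26 in dbTg. Its difference of 0.94 is the second largest of all members, at a signal where no detection call accompanies the values. It was 0.56 without dbTg replicate 1. Mrpl20 read 1.48 and 1.45 in WT and 1.31 and 1.21 in dbTg. Mrps14 had a difference of 0.20 and overlapping groups. Mrps36, now known as a subunit of the oxoglutarate dehydrogenase complex and not of the ribosome, read 1.00 and 1.34 in WT and 1.22 and 1.36 in dbTg.

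The male and the female pair were compared as the values allow. The median difference of the 71 members was 0.14 between the males and -0.02 between the females. The sign was the same in both pairs for 51 members (32 positive, 19 negative) and opposite for 20. Across the members the differences of the pairs correlated with Pearson's r of 0.65 and Spearman's rho of 0.61, where each point is a gene and all points share the 4 arrays. Mrpl47 (1.13 and 1.04), Mrpl40 (0.55 and 0.56) and Mrpl16 (-0.43 and -0.45) had nearly the same difference in males and females.

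**Figure D4:**
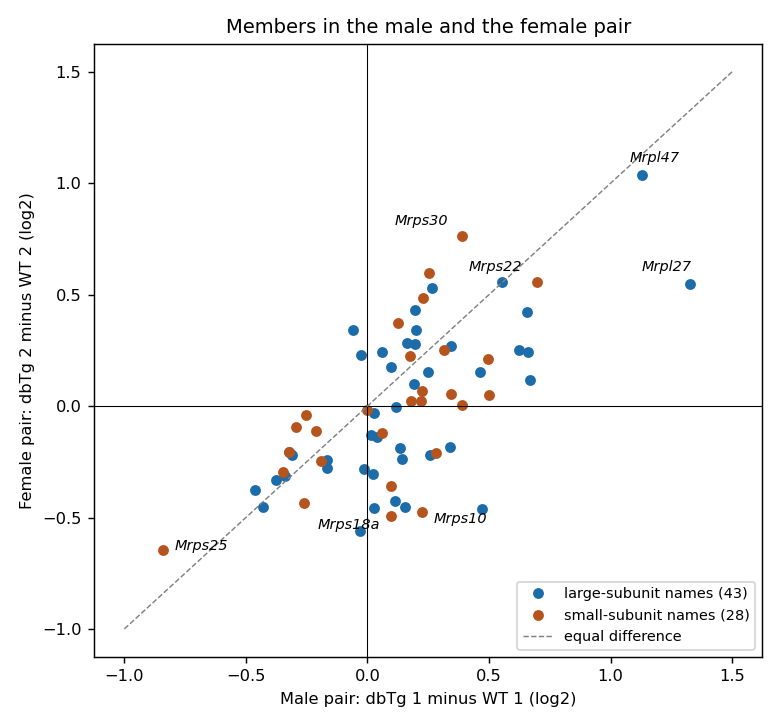
Log2 difference in the male pair (dbTg 1 minus WT 1, x axis) and the female pair (dbTg 2 minus WT 2, y axis), each point 1 of the 71 genes, with a dashed line where both are equal. Mrpl47 lies high in both pairs (1.13 and 1.04) and Mrps25 low in both (-0.84 and -0.65), while 20 genes have opposite signs.

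The rest of the mitochondrial gene expression pathway also had no called gene. Over 6 lists with 78 tested genes, 0 passed the threshold, against 2.21% of all tested genes. Unadjusted p-values under 0.05 were found for 4 positive and 3 negative differences (8.97%, against 18.7% of all tested genes), and the median was 0.07. Negative differences made up 37.2% of these 78 genes, against 39.5% of all tested genes. Of 21 tested assembly factors of the ribosome, 17 were positive (median 0.11), yet the 2 with the smallest p-values were negative. Fastkd2, an RNA-binding protein of mitochondrial RNA granules, read 4.10 and 4.02 in WT and 3.29 and 3.49 in dbTg. Mtg1, a GTPase of ribosome assembly, read 3.57 and 3.95 in WT and 3.11 and 2.91 in dbTg. Of 12 translation factors, 9 were positive (median 0.08). Guf1, the back-translocase, read 3.93 and 3.99 in WT and 4.69 and 4.65 in dbTg (difference 0.71, limma adjusted p = 0.108), and Mtfmt, which formylates the initiator transfer RNA, differed by 0.41 (0.363).

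Of 18 tested genes that charge mitochondrial transfer RNAs, 11 were positive (median 0.02), and Yars2 and Tars2 had the smallest p-values (differences 0.62 and -0.44). Of 15 tested genes of mitochondrial DNA expression, 5 were positive and 10 negative (median -0.06). Tfb2m, the transcription factor that opens mitochondrial promoters, read 6.37 and 6.25 in WT and 5.56 and 5.55 in dbTg. Its difference was -0.75 (SE 0.16, limma adjusted p = 0.0698), and without WT replicate 2 it was past the threshold (limma adjusted p = 0.0499, in a range of 0.0499 to 0.434 over the alternatives). Ssbp1, the single-stranded DNA-binding protein of mitochondria, differed by 0.45 (limma adjusted p = 0.201). Of 8 regulators of mitochondrial biogenesis, 4 were positive (median 0.05), with Ppargc1b at 0.66 and Gabpa at 0.27. Ppargc1b was at 0.92 without WT replicate 1, 0.40 without WT replicate 2 and 0.44 after the second quantile normalization. Of 4 ribosome-linked proteins with other names, 3 were positive. Oxa1l, the insertase that receives new peptides, differed by 0.35 and Ptcd3, a small-subunit protein, by -0.31.

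The members lay between both gene families most like them. The 56 tested genes of cytosolic ribosomal proteins had a median difference of 0.31, with 47 positive. Of these 56, 2 passed the test (3.57%, against 2.21% of all tested genes). The 65 tested subunits of the respiratory chain and ATP synthase had a median of -0.17, with 54 negative, and 0 passed. The 67 tested mitochondrial ribosomal protein genes had a median of 0.04, with 31 negative. Among all tested genes, 39.5% were negative. The difference between these families was not tested.

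**Figure D5:**
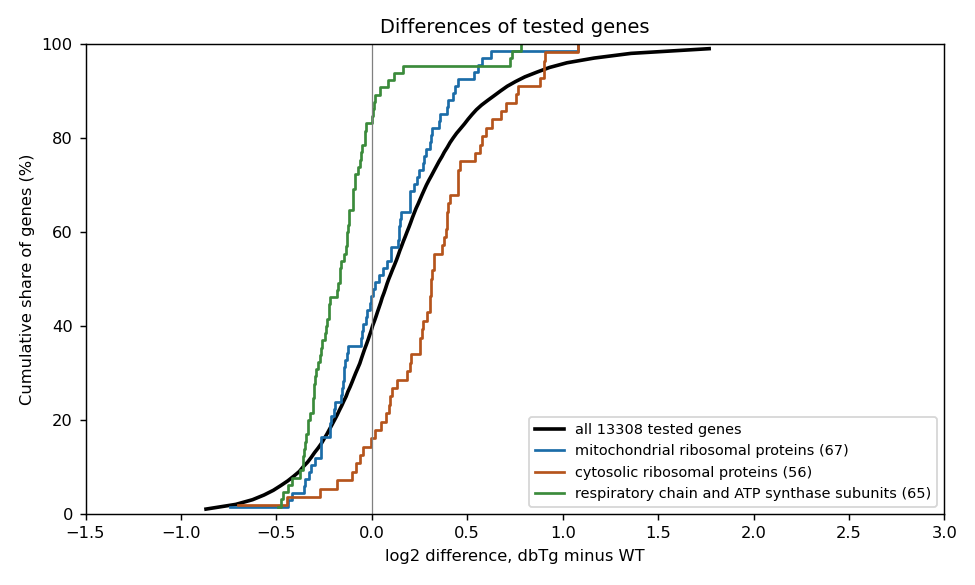
Cumulative share of genes (%, y axis) by log2 difference (dbTg minus WT, x axis) for all 13308 tested genes (black, percentiles 1 to 99), mitochondrial ribosomal proteins (blue), cytosolic ribosomal proteins (orange) and respiratory chain and ATP synthase subunits (green). The blue line crosses its median at 0.04, between -0.17 for the green and 0.31 for the orange line. Values are the deposited ones, and a second quantile normalization turns the median of all members to -0.07. It also lowers the median of all tested genes, from 0.09 to -0.002.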

How the data were processed

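The authors deposited log2 RMA values from Affymetrix Expression Console (RMA-sketch setting), per the labels. Its version and the annotation build: not given in the sources used here. RMA corrects background, normalizes by quantiles and summarises probes, which shrinks differences at low signal.

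Of 41345 probe sets, 23521 carried exactly 1 symbol (1814 several, 16010 none), checked against RefSeq of GRCm38.p6 with 0 symbols changed. Genes whose mean over the 4 arrays reached the 40th percentile (1.48) were tested with limma 3.58.1 in R 4.3.3 (lmFit, eBayes with intensity trend, 2 residual and 4.76 prior degrees of freedom, two-sided, threshold 0.05). An exact permutation test of 2 arrays against 2 cannot give a p below 0.333, so none was used. The fit was tested on simulated data. Members, lists, places in the ribosome, motifs and comparison families were chosen with earlier results of these data known. Named genes were, by rule, the 6 most negative and 6 most positive tested members, the 3 with the highest means, those with probe sets of opposite sign, the S18 paralogues, the 3 with the widest gaps, those below the filter and 2 genes per list. Other members are given as examples of their place. Alternatives left out each array, added the replicate number (and so the sex) as a block, and changed normalization, filter, probe set choice and eBayes settings. The normalizations were median centring and a second quantile normalization, both run on the deposited RMA values.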

Additional observations from a re-analysis of the deposited data

Results flagged for a closer look

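The male and the female pair gave opposite signs for 3 medians. The median log2 difference of all members was 0.143 in the male pair and -0.018 in the female pair. For the Mrpl genes it was 0.1335 and -0.0325, and for the Mrps genes 0.175 and -0.0061. Among the genes named by rule, 4 also differed in sign: Mrpl42 (0.143 in males, -0.238 in females), Mrpl12 (0.1335 and -0.186), Mrps18a (0.095 and -0.491) and Mrps10 (0.223 and -0.477). Each pair holds 1 array of each group, so these differences were not tested. The male WT mouse was also the older one, at 17 to 18 weeks, so sex and age cannot be told apart.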

How the results depend on the processing

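The count of called members was 0 in the reported fit. It was 0 to 1 when 1 array was left out and 1 when the filter was raised to the 60th percentile, in both cases Mrpl47. Of the pathway genes, 0 to 1 were called when 1 array was left out (Tfb2m without WT replicate 2). With a lone array in a group, that array is assumed to vary like the other group. The groups did not overlap for 24 higher and 16 lower of all 71 members. After quantile normalization these were 15 and 28, and with 1 array left out 29 to 34 were higher and 16 to 32 lower, where a lone array overlaps less readily. The median of all members (0.056) was 0.088 after median centring, -0.071 after quantile normalization and -0.015 to 0.070 with 1 array left out. The Mrpl median (0.056) was 0.088, -0.071 and -0.012 to 0.083 in the same order, and 0.019 when probe sets of a gene were averaged. The Mrps median (0.068) was -0.060 after quantile normalization and -0.052 to 0.143 with 1 array left out. The median of all tested genes was 0.089, and -0.002 after the second quantile normalization. Over all probe sets the upper quartile of the deposited values was 2.80 and 2.78 in WT and 2.99 and 2.98 in dbTg. The part of this offset in the change of sign was not tested.

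With the replicate number as a block, 0 members were called, while unadjusted p-values were under 0.05 for 4 members higher and 1 lower in dbTg. At an adjusted p under 0.05, 63 of all tested genes were higher and 2 lower in this fit, in place of 267 and 27. The share of all tested genes at the unadjusted threshold was not counted in this fit. In both groups number 1 was the male and number 2 the female, so the block is also one for sex. Mrpl47 had a limma adjusted p of 0.107 in this fit. The labels give no other pairing of animals. The difference between replicates 1 and 2 correlated between WT and dbTg with r of 0.049 across tested genes and 0.185 across the tested members. Without dbTg replicate 1 or without dbTg replicate 2, 4 genes of all tested were higher and 0 lower. Without WT replicate 1 these were 610 and 156, and without WT replicate 2 they were 593 and 142, so the share of all genes called moves by over 1.5 times in both directions.

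Of 480 values of the 40 genes named by rule under 12 alternatives, 463 kept sign and side of the threshold, 3 passed it and 14 changed sign. The block, the filter settings and the eBayes settings leave the difference itself as it is, so no sign could change under them. Averaging probe sets leaves genes with 1 probe set as they are. Members below the filter had no adjusted p unless the filter was removed, and were counted as keeping their side. Mrps15 was 0.023 and Mrpl12 0.0057 after median centring. With the mean of probe sets Mrpl12 was 0.002 and Mrps16 0.120. With 1 array left out, Mrpl42 ranged from -0.170 to 0.076, Mrps15 from -0.0584 to 0.0403, Mrpl12 from -0.201 to 0.148, Mrps18a from -0.401 to 0.0043, Mrps10 from -0.416 to 0.163, Mrps31 from -0.108 to 0.503, Mrps36 from -0.049 to 0.293 and Mrps14 from -0.055 to 0.4536. Having 2 arrays per group limits precision throughout.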
